A study of Mus musculus with 15 samples.

Results

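NF-kB is a family of dimeric transcription factors, and 10 genes of its core circuit were followed here through mouse submandibular gland after irradiation. They were the subunit genes Nfkb1, Nfkb2, Rela, Relb and Rel, the inhibitor and cofactor genes Nfkbia, Nfkbie and Bcl3, and the kinase gene Map3k14 with the adaptor gene Traf3, taken by symbol from a table of 21013 gene symbols. All 10 passed the low-count filter that left 16042 genes for testing. The family was chosen by a measured value, the change of Nfkb2 in the day 30 comparisons of these same libraries, so the day 30 values are given as a description with no p-value.

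RNA was sequenced from 15 gland samples of wildtype male C57BL/6 mice aged 8 to 10 weeks, in 5 groups of 3. Nontreated glands (NT) received no irradiation. IR_4d and IR_30d glands received 15 Gy over the gland region and were taken at day 4 or day 30. IR_iEV_4d and IR_iEV_30d glands received the same dose and weekly injections of iEVs into the gland, starting at day 1. The abbreviation iEV is not explained by the sample labels; the title of the series names extracellular vesicles of mesenchymal stem cells. A vehicle group or a group with iEVs alone is not among the 5, so an effect of the injection and one of the iEVs cannot be told apart. A weekly schedule from day 1 puts a second injection after day 4, so the iEV groups of day 4 and day 30 also differ in the number of injections. The time since the last injection can differ as well. The collection day of the NT glands is not stated, nor is whether each sample was 1 mouse, so the p-values below rest on a spread between samples that may in part be technical.

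In resting cells NF-kB dimers are held in the cytoplasm by inhibitory proteins of the IkB family. The canonical arm, driven by cytokine and Toll-like receptors, has IkB proteins degraded and releases dimers of RelA, c-Rel and p50, the last made from Nfkb1. The noncanonical arm, driven by a subset of tumour necrosis factor receptors, stabilises the kinase NIK and has p100, the product of Nfkb2, processed to p52, the partner of RelB. Unprocessed p100 itself retains dimers in the cytoplasm, and several of these genes are textbook targets of NF-kB, which makes the circuit self-limiting. Processing and nuclear entry are protein events that RNA counts do not measure.

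Promoter sequence is shown for 3 members: Nfkb2, whose day 30 difference led to the choice of the family, and the feedback genes Nfkbia and Bcl3, which did not pass in any of the 4 main comparisons. RefSeq windows on build GRCm38.p6, running from 250 bases before to 50 bases after a start site, were at hand for 8 of the 10 members, in 10 windows; Nfkb1 and Relb were the members without one. Capitals mark matches to the 10-letter NF-kB consensus (GGG, a purine, any 2 bases, a pair of pyrimidines, CC), searched on both strands with overlapping matches counted. All lines read 5′ to 3′ on the gene's strand. The Nfkb2 windows lie at chr19:46304487-46304786 and chr19:46305445-46305744 on the plus strand, the Nfkbia window at chr12:55492598-55492897 and the Bcl3 window at chr7:19822706-19823005, both on the minus strand.
Nfkb2, first start: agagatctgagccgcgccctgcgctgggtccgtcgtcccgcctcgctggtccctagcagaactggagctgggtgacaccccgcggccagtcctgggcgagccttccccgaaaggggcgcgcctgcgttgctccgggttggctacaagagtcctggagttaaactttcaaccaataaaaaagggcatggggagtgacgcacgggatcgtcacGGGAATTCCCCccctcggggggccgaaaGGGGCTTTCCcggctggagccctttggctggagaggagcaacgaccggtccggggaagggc
Nfkb2, second start: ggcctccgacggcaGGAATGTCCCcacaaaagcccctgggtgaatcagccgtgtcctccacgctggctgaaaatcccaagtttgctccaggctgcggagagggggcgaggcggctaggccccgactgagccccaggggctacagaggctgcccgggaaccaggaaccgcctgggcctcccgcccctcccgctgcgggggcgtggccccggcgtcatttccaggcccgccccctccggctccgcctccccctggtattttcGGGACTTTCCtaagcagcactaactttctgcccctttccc
Nfkbia: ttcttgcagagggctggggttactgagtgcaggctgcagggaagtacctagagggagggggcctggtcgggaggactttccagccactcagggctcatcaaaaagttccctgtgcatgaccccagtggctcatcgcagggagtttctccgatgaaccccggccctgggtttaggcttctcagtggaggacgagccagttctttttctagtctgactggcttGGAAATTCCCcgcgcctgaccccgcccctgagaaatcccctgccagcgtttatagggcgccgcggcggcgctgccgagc
Bcl3: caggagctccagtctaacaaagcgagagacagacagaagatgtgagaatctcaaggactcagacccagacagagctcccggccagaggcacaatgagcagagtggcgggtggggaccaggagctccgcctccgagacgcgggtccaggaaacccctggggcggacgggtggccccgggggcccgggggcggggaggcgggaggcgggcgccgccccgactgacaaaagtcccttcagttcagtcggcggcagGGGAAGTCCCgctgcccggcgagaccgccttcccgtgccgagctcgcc

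At the first Nfkb2 start the palindrome GGGAATTCCC began 39 bases before the start site, overlapped by GGAATTCCCC, and GGGGCTTTCC began 11 bases before it. At the second start GGAATGTCCC began 236 bases before and GGGACTTTCC began 10 bases after the start site. The remaining Nfkb2 window overlaps that of the second start and shares GGGACTTTCC. Nfkbia held GGAAATTCCC, and Bcl3 held GGGAAGTCCC. Of the windows not printed, Rel held GGGAAATCCC, Nfkbie GGGGGATTCC and Traf3 GGGGATTTCC, while Rela and Map3k14 held no match. In all, 8 of 10 member windows and 6 of 8 members held the consensus, against 8.46% of 32851 windows and 9.55% of 27025 genes in the whole table. A match describes these letters only. Whether a member held a match did not set Nfkb2 apart from Nfkbia, Bcl3, Rel, Nfkbie or Traf3.

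Total counts per library ran from 29082798 to 52201098, and levels below are CPM, that is, reads scaled by the TMM-adjusted library total. The gland's secretory markers Egf and Aqp5, the latter a water channel of acinar cells, were present in every library, at 21382 to 71940 CPM and 192 to 358 CPM. Markers of the adjoining sublingual gland divided the libraries: their mean log2 CPM was 7.48 or higher in 6 (NT replicate 1, IR_4d replicates 1 and 2, IR_iEV_4d replicates 2 and 3, IR_iEV_30d replicate 2) and at most 2.37 in the other 9. The mean log2 CPM of the parotid markers ran from 4.61 to 12.2. That list shares Dcpp1 with the sublingual list and holds Prol1, which had 47335 to 75072 CPM. Its mean is therefore not a reading of parotid RNA alone. The summed level ran from 9.83 to 349 CPM for fat and 1.75 to 98.9 for muscle. It ran from 6.93 to 14.9 CPM for dendritic cells and 39.5 to 64.2 for endothelium. The member values of the 4 main comparisons were therefore also computed without the 6 libraries high in sublingual markers, which leaves 1 library in each day 4 group. Those left, IR_4d replicate 3 and IR_iEV_4d replicate 1, had parotid means of 9.04 and 10.0, above every NT library. All 3 IR_30d libraries were also kept. Of these, replicate 2 had a parotid mean of 8.90, likewise above every NT library. Replicates 1 and 3 had 5.94 and 6.06, above the NT libraries kept (replicates 2 and 3) and below NT replicate 1. The comparisons with NT at day 4 and at day 30 are thus not cleared of neighbouring-gland RNA. IR_30d replicate 2 also enters IR_iEV_30d against IR_30d.

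Levels were compared between members per kilobase of exon (GENCODE vM21, build GRCm38, since no annotation of the files' own build GRCm39 was used). In NT glands Nfkbia, which encodes the inhibitor IkB-alpha, was the highest at 22.3 ± 6.76 CPM per kilobase (SD, n = 3), followed by Rela at 10.3 ± 0.907 and Nfkb2 at 7.73 ± 1.34. The ranges of these 3 genes did not overlap. Traf3 followed at 3.70 to 4.12, Nfkb1 at 3.10 to 3.32, then Relb at 1.69 to 2.02 and Bcl3 at 1.46 to 2.24, which overlapped each other. Rel, Nfkbie and Map3k14 were lowest, at 0.488 to 1.12, 0.405 to 0.847 and 0.211 to 0.411 CPM per kilobase, each overlapping its neighbour. The raw counts behind Nfkbie were 20 to 133 per library and those behind Map3k14 were 44 to 145, against 1109 to 3146 for Nfkb2. In IR_30d glands Nfkb2 stood at 18.5 ± 1.24 CPM per kilobase and Rela at 10.9, so that the order of this pair was inverted.

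**Figure D1:**
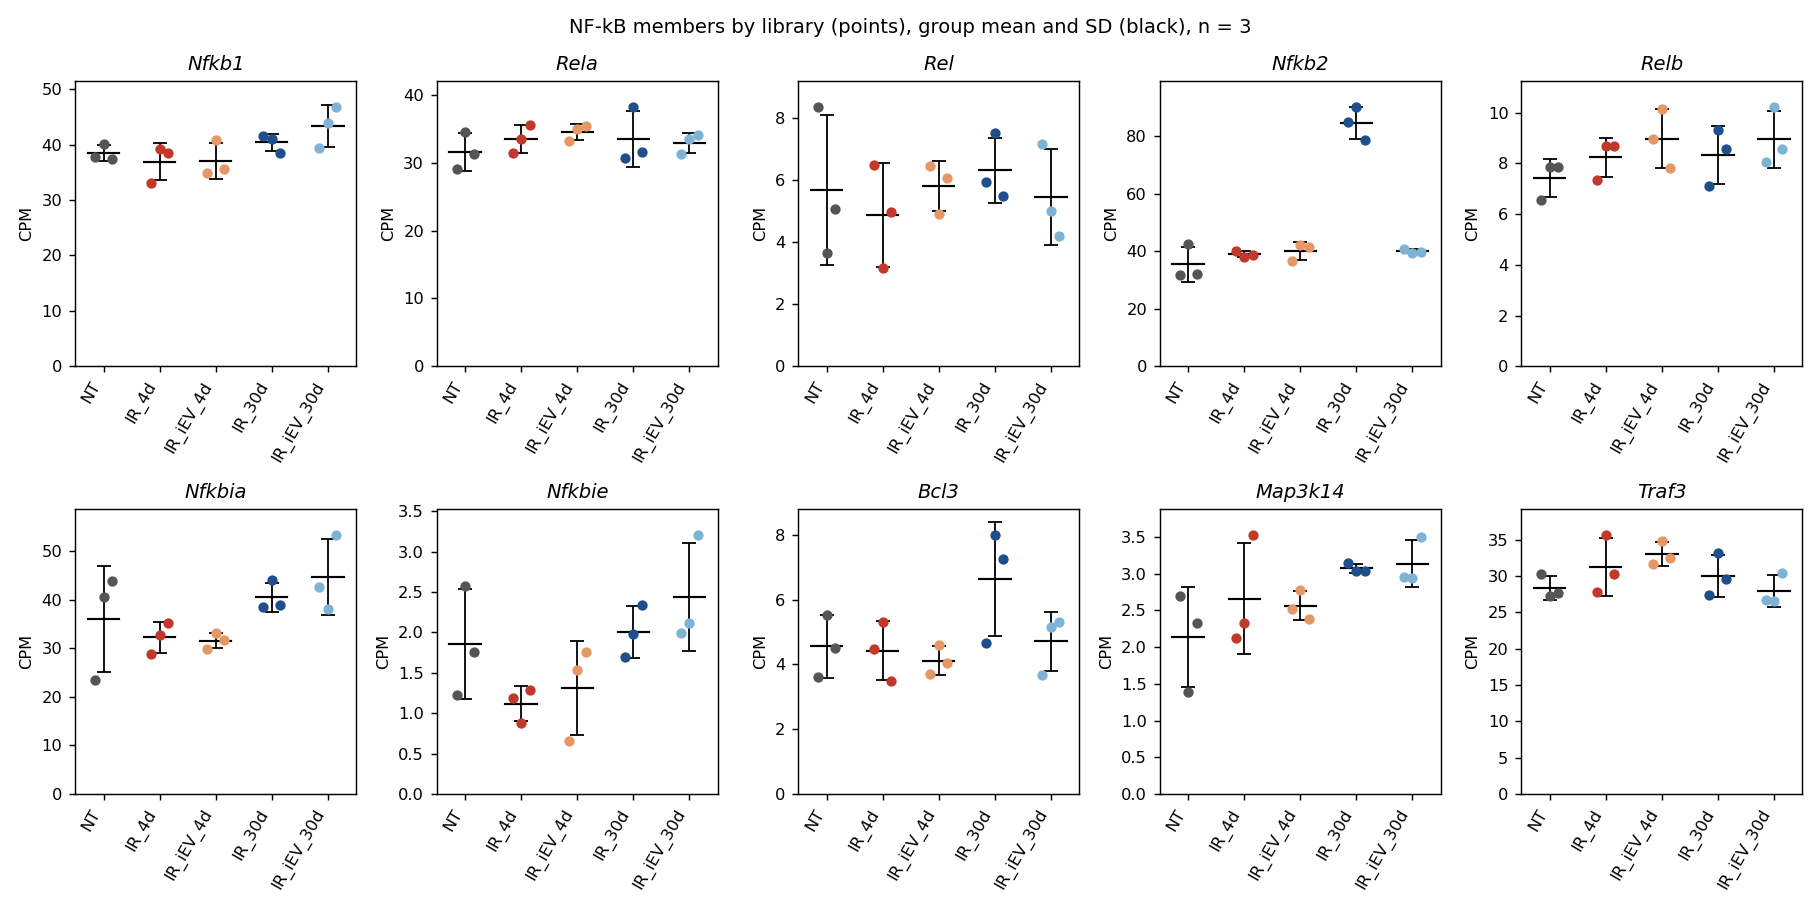
CPM of each of the 10 genes in every library (points), with the group mean and SD (black), n = 3 per group; each panel has its own vertical axis. Nfkb2 in IR_30d lies at 78.9 to 90.2 CPM, and no other Nfkb2 library exceeds 42.5.

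Nfkb2, the p100 and p52 gene, had 31.8, 42.5 and 32.0 CPM in the 3 NT libraries. It had 40.1, 38.0 and 38.8 CPM in IR_4d and 36.6, 42.3 and 41.4 CPM in IR_iEV_4d. It had 84.9, 90.2 and 78.9 CPM in IR_30d and 40.9, 39.5 and 39.8 CPM in IR_iEV_30d. The 3 IR_30d libraries thus stood above all 12 others, and the 3 IR_iEV_30d libraries fell inside the NT range. The difference between IR_30d and NT was 1.26 ± 0.10 on the log2 scale (SE), a 2.39-fold higher level. Between IR_iEV_30d and IR_30d it was -1.08 ± 0.10, a 2.11-fold lower level, and IR_iEV_30d differed from NT by 0.18 ± 0.10. These comparisons share libraries: IR_30d enters those with NT and with IR_iEV_30d, and NT enters those with IR_30d and with IR_iEV_30d. In whole-gland RNA a change in the share of a cell type and a change in RNA per cell cannot be told apart.

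Reads of neighbouring genes on the opposite strand were examined, since the strand setting of the authors' counting is not stated. Psd, which overlaps the 3′ end of Nfkb2, had 1.21 to 2.84 CPM over all libraries and differed by 0.21 ± 0.31 (log2, SE) between IR_30d and NT. RefSeq places the long noncoding RNA 4833438C02Rik over the Nfkb2 start region, where GENCODE has one on the opposite strand under another name. It had 8.79 ± 2.44 CPM (SD, n = 3) in NT, 13.2 ± 0.503 in IR_30d and 11.3 ± 1.39 in IR_iEV_30d. Its difference was 0.58 ± 0.19 between IR_30d and NT and -0.22 ± 0.18 between IR_iEV_30d and IR_30d, and the IR_30d libraries lay above those of NT. If reads were counted without strand, Nfkb2 and these partners cannot be fully told apart. In IR_30d 4833438C02Rik had at most 13.7 CPM and Nfkb2 at least 78.9. How reads of a shared stretch were assigned is not stated, so these levels set no bound on partner reads. Their part in the Nfkb2 difference was not tested.

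Relb, whose protein pairs with p52, had 6.56, 7.86 and 7.86 CPM in NT and 7.33, 8.69 and 8.67 CPM in IR_4d. In IR_iEV_4d it had 8.94, 10.1 and 7.82 CPM. At day 30 it had 7.10, 9.32 and 8.57 CPM in IR_30d and 8.07, 10.2 and 8.55 CPM in IR_iEV_30d. The IR_30d libraries overlapped those of NT and of IR_iEV_30d, so Relb did not follow the Nfkb2 pattern. Its difference between IR_30d and NT was 0.17 ± 0.15 (log2, SE) with a 95% interval of -0.15 to 0.48.

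Map3k14 encodes NIK, the kinase that starts p100 processing. It had 2.69, 1.38 and 2.33 CPM in NT, 3.14, 3.04 and 3.04 CPM in IR_30d and 2.95, 2.95 and 3.50 CPM in IR_iEV_30d. Both day 30 groups lay above NT and overlapped each other, with differences from NT of 0.52 ± 0.24 and 0.55 ± 0.24 (log2, SE). Neither difference passed the threshold over all genes. At day 4 it had 2.13 to 3.53 CPM in IR_4d and 2.39 to 2.78 CPM in IR_iEV_4d. Traf3, the adaptor that marks NIK for degradation, was at 27.2 to 30.3 CPM in NT, 27.5 to 33.1 in IR_30d and 26.6 to 30.4 in IR_iEV_30d, and these groups overlapped.

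Among the canonical subunits, Rela had 29.1, 34.6 and 31.2 CPM in NT, 30.7, 38.2 and 31.6 CPM in IR_30d and 31.2, 33.4 and 34.1 CPM in IR_iEV_30d. Nfkb1, the paralogue of Nfkb2, had 37.8, 40.1 and 37.4 CPM in NT, 41.6, 40.9 and 38.6 CPM in IR_30d and 39.3, 43.9 and 46.8 CPM in IR_iEV_30d. The groups of both genes overlapped, and neither showed the separation of IR_30d seen for Nfkb2. The 95% interval of the Nfkb1 difference between IR_30d and NT was -0.12 to 0.27 on the log2 scale, against 1.04 to 1.47 for Nfkb2. Rel, a subunit best known from lymphoid cells, was scattered within groups, at 8.37, 3.65 and 5.07 CPM in NT and 5.95, 7.51 and 5.50 CPM in IR_30d.

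The feedback genes were as follows. Nfkbia had 23.5, 40.5 and 43.9 CPM in NT, 38.5, 43.9 and 38.8 CPM in IR_30d and 42.6, 38.1 and 53.4 CPM in IR_iEV_30d. The low NT library is replicate 1, which is among the 6 with sublingual markers. With those 6 left out, the difference between IR_30d and NT went from 0.17 to -0.085 on the log2 scale. Nfkbie, which encodes IkB-epsilon, had 1.23, 2.58 and 1.76 CPM in NT, 1.69, 1.98 and 2.34 CPM in IR_30d and 1.99, 2.11 and 3.21 CPM in IR_iEV_30d, and its IR_30d difference likewise went from 0.12 to -0.12. Bcl3, a nuclear IkB relative that binds p50 and p52 dimers, had 3.61, 5.53 and 4.51 CPM in NT, 4.65, 8.00 and 7.24 CPM in IR_30d and 3.66, 5.16 and 5.31 CPM in IR_iEV_30d. In these 2 comparisons Bcl3 had the largest differences after Nfkb2, 0.55 ± 0.23 between IR_30d and NT and -0.49 ± 0.23 between IR_iEV_30d and IR_30d (log2, SE), but its groups overlapped and neither passed the threshold.

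The change that led to the choice of the family was the one at day 30. The day 4 values were known from earlier results, and IR_4d against NT shares the NT libraries with day 30, so the day 4 tests are not fully independent of the choice. They were made with edgeR's quasi-likelihood F test with Benjamini-Hochberg adjustment over all 16042 genes. Between IR_4d and NT, 0 of 10 members passed an adjusted p of 0.05, where 1.4% of all tested genes did. DESeq2 also called 0 of 10, and 0 of 10 had an unadjusted p under 0.05 in edgeR, against 11.6% of all genes. Nfkb2 differed by 0.14 ± 0.10 (log2, SE; edgeR adjusted p = 0.675), with a 95% interval of -0.075 to 0.36. That interval lies below the 1.26 seen at day 30. The lowest adjusted p was that of Nfkbie, at -0.73 ± 0.36 (edgeR adjusted p = 0.451; interval -1.48 to 0.023), with 1.18, 0.875 and 1.29 CPM in IR_4d against 1.23, 2.58 and 1.76 CPM in NT. The other 8 members lay between -0.22 (Rel) and 0.31 (Map3k14), and the groups of all 10 overlapped, where 18.4% of all genes had groups that did not.

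Between IR_iEV_4d and IR_4d, 0 of 10 members passed in edgeR or in DESeq2, 0 of 10 had an unadjusted edgeR p under 0.05, and 0 of 10 had groups that did not overlap. The same figures over all genes were 0.0312% (edgeR), 6.81% and 14.2%, so few genes of any kind passed this comparison. Nfkb2 differed by 0.042 ± 0.10 (log2, SE; edgeR adjusted p = 0.954), with an interval of -0.17 to 0.26. The other 9 lay between -0.10 (Bcl3) and 0.25 (Nfkbie), and their lowest edgeR adjusted p was 0.891. IR_iEV_4d against NT, which shares the NT libraries, had 0 of 10 members past the threshold in edgeR, with 2.31% of all genes, and 0 of 10 in DESeq2. Traf3 alone had groups that did not overlap (19% of all genes), at 31.6, 34.9 and 32.5 CPM against 30.3, 27.2 and 27.7 CPM. In edgeR 1 of 10 had an unadjusted p under 0.05, against 16.6% of all genes.

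At day 30, as a description, 1 of 10 members passed between IR_30d and NT (Nfkb2, the gene the family was built around), where 4.48% of all tested genes did. DESeq2 also called Nfkb2 alone of the 10. Groups did not overlap for Nfkb2 and Map3k14, both higher, against 23.2% of all genes. The other 9 members lay between 0.072 (Nfkb1) and 0.55 (Bcl3), 9 of 9 above 0, with a median of 0.15 beside -0.0038 over all genes; Nfkbia and Nfkbie were below 0 without the 6 libraries. Between IR_iEV_30d and IR_30d, 1 of 10 passed, again Nfkb2 and again in DESeq2 too, where 0.798% of all tested genes did, and Nfkb2 alone had groups that did not overlap (19.6% of all genes). The other 9 lay between -0.49 (Bcl3) and 0.29 (Nfkbie), 5 of 9 above 0, with a median of 0.030 beside -0.0096 over all genes; Rela, at -0.025, was 0.0024 with upper quartile scaling. IR_iEV_30d against NT had 0 of 10 past the threshold in edgeR, with 1.1% of all genes, and 0 of 10 in DESeq2. Relb and Map3k14 had groups that did not overlap, both higher, with 17% of all genes. In edgeR 1 of 10 had an unadjusted p under 0.05, against 12.9% of all genes.

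**Figure D2:**
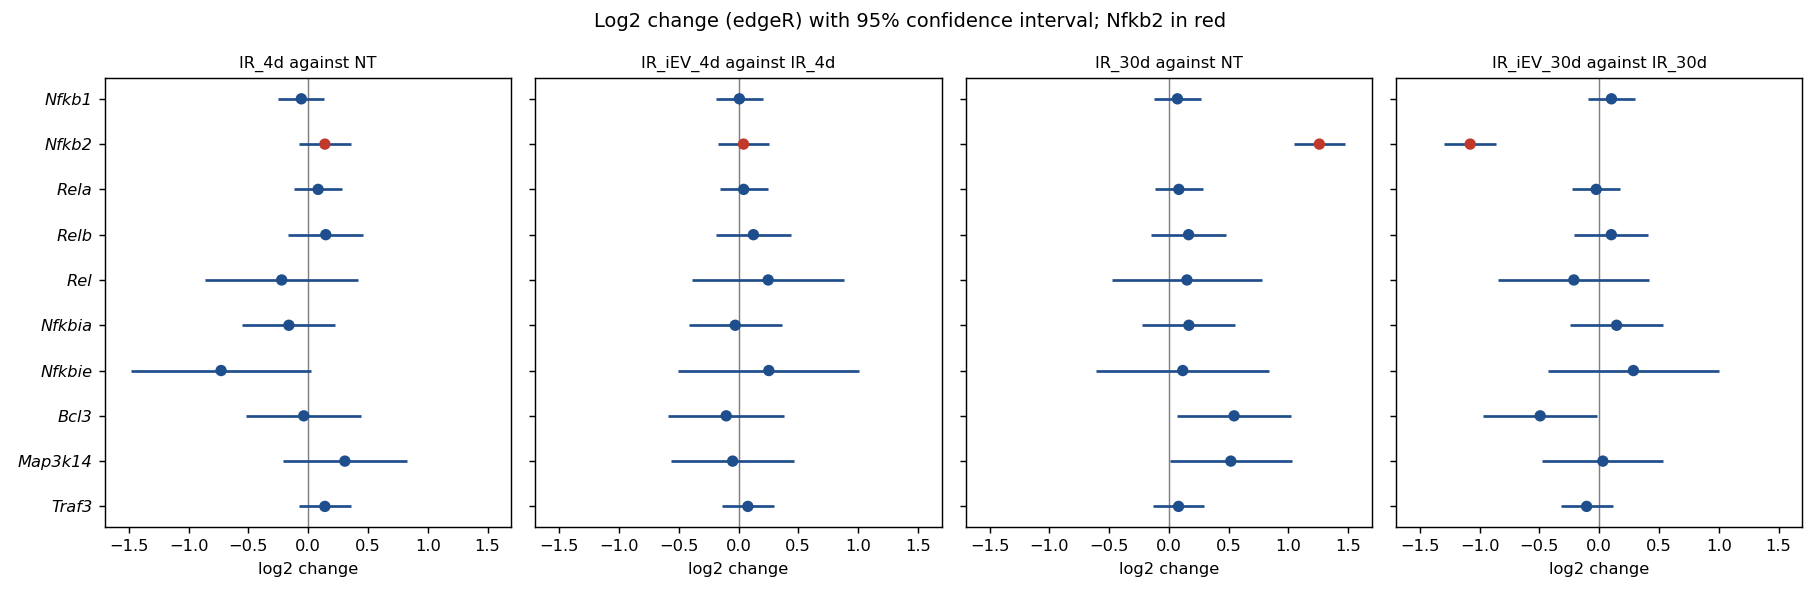
Log2 change of each gene in the 4 main comparisons (horizontal axes), from edgeR, with 95% confidence intervals; the day 30 panels include the change that led to the choice of the family. Nfkb2 (red) is at 1.26 and -1.08 in the day 30 panels, and the other 9 genes lie within 0.55 of 0 there.

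Day 30 was also set against day 4 within each treatment. As a description, IR_30d against IR_4d had 1 of 10 members past the threshold, where 6.81% of all genes passed. That member was Nfkb2, at 1.12 ± 0.10 (log2, SE). Its level in IR_30d led to the choice of the family, so the pass is no separate evidence. Groups did not overlap for 3 of 10 (Nfkb2, Nfkbia and Nfkbie, all higher at day 30), against 31.5% of all genes. IR_iEV_30d against IR_iEV_4d, which does not contain the IR_30d libraries, had 0 of 10 past the threshold in edgeR, where 8.27% of all genes passed, and 0 of 10 in DESeq2. In that comparison 4 of 10 had an unadjusted p under 0.05, against 24.2% of all genes, and 4 of 10 had groups that did not overlap, against 26%: Nfkbia, Nfkbie and Map3k14 higher at day 30, Traf3 lower. Nfkbia had 29.9, 33.1 and 31.7 CPM in IR_iEV_4d and 42.6, 38.1 and 53.4 CPM in IR_iEV_30d, and the lowest adjusted p of the 10 was 0.105 in edgeR. Nfkb2 differed by -0.0019 ± 0.10 in this comparison, with an interval of -0.22 to 0.21.

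Ratios taken within a library do not depend on scaling between libraries. The ratio of Nfkb2 to Nfkb1, per kilobase, was 2.42 ± 0.325 (SD, n = 3) in NT, 2.80 ± 0.346 in IR_4d and 2.85 ± 0.180 in IR_iEV_4d. It was 5.52 ± 0.246 in IR_30d and 2.45 ± 0.259 in IR_iEV_30d. The ratio of Nfkb2 to Relb, the gene of its dimer partner, was 3.45 to 4.58 in NT, 7.80 to 10.1 in IR_30d and 3.27 to 4.30 in IR_iEV_30d. The ratio of Nfkb2 to Rela was above 1 in the IR_30d libraries alone, at 1.58 to 1.85 against 0.686 to 0.878 in the other 12. Relb to Rela, which contains no Nfkb2, ran from 0.175 to 0.242 over all 15 libraries with overlapping groups. These ratios restate the Nfkb2 change against different partners and are no separate evidence of it.

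**Figure D3:**
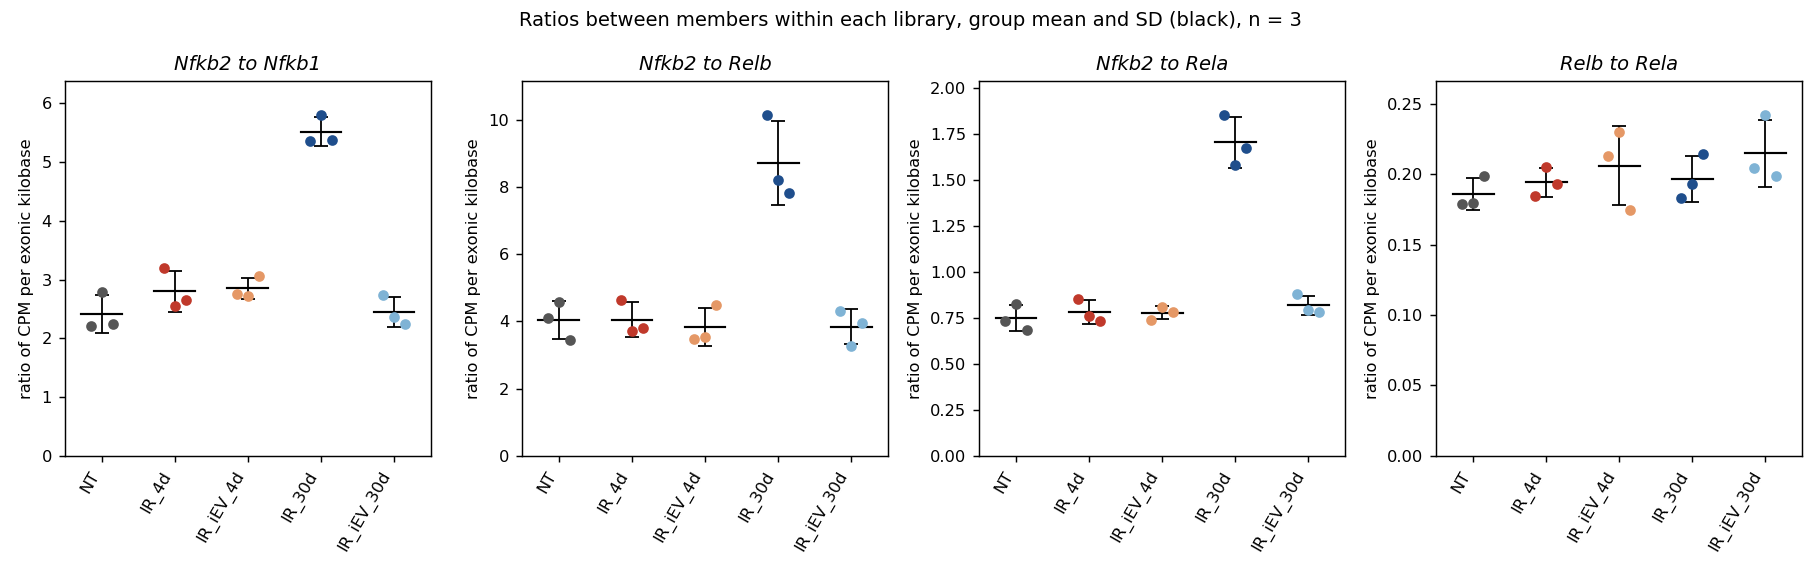
Ratios of CPM per exonic kilobase within each library (points), with group mean and SD (black), n = 3 per group. The 3 ratios with Nfkb2 are higher in IR_30d, at 5.52 against 2.42 in NT for Nfkb2 to Nfkb1, while Relb to Rela stays between 0.175 and 0.242.

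The rest of the pathway was read from 6 lists written with earlier results of these data known. Of 10 ligand genes 6 passed the low-count filter, and 0 of 6 passed the test in any of the 4 main comparisons in edgeR. DESeq2 also called 0, with an adjusted p for 6, 6, 7 and 2 ligand genes in IR_4d against NT, IR_30d against NT, IR_iEV_4d against IR_4d and IR_iEV_30d against IR_30d. At an unadjusted edgeR p under 0.05 there were 2 of 6, both in IR_iEV_4d against IR_4d, where 6.81% of all genes were: Il1a and Il1b, high in IR_4d replicate 3 alone at 3.08 and 4.58 CPM and at most 0.71 CPM in the other 5 libraries of the pair. Ligand RNA was low: Tnf did not exceed 0.769 CPM and Il1b did not exceed 4.58 CPM in any library. Ltb, a ligand of the noncanonical arm, was at 0.346 to 1.05 CPM in NT and 0.332 to 0.889 CPM in IR_30d. Tnfsf12, which encodes TWEAK, another ligand of that arm, was at 10.7 to 13.4 CPM in NT and 13.0 to 14.4 CPM in IR_30d.

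Of 10 receptor genes 9 were tested and 0 passed in any main comparison in edgeR, with 2, 3, 1 and 1 of 9 at an unadjusted p under 0.05 in IR_4d against NT, IR_30d against NT, IR_iEV_4d against IR_4d and IR_iEV_30d against IR_30d. The shares over all genes were 11.6%, 16.3%, 6.81% and 12.9%. DESeq2 called 2 in IR_30d against NT, Tnfrsf1b higher and Tnfrsf12a lower, and 0 in the other 3. Ltbr, the lymphotoxin beta receptor, had 47.4, 58.3 and 51.8 CPM in NT and 52.2, 51.8 and 54.6 CPM in IR_30d. Tnfrsf12a, the TWEAK receptor, had 6.76, 10.6 and 6.60 CPM in NT and 4.32, 5.36 and 4.10 CPM in IR_30d, without overlap. Tnfrsf1b, a tumour necrosis factor receptor, had 6.65, 5.06 and 4.75 CPM in NT and 6.49, 10.1 and 7.92 CPM in IR_30d. Of 21 adaptor and kinase genes all 21 were tested and 0 passed in any main comparison in edgeR or DESeq2. In the same order, 2, 1, 0 and 1 of 21 had an unadjusted edgeR p under 0.05. Of the 3 IKK subunit genes, Chuk, the kinase that phosphorylates p100, was at 31.8 to 36.6 CPM in NT and 30.0 to 35.0 in IR_30d. In IR_iEV_30d Chuk had 30.3, 30.5 and 18.3 CPM, below the NT libraries and overlapping IR_30d, with a difference from IR_30d of -0.30 ± 0.15 (log2, SE) that did not pass. In NT and IR_30d Ikbkb was at 30.0 to 32.8 and 29.3 to 31.2 CPM, and Ikbkg at 33.9 to 35.4 and 33.4 to 35.6 CPM. Birc2 and Birc3, which act with Traf3 on NIK, differed by 0.12 ± 0.14 and 0.18 ± 0.11 (log2, SE) between IR_30d and NT.

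Of 11 further inhibitors all 11 were tested and 0 passed in any main comparison in edgeR. DESeq2 also called 0, of 11 genes with an adjusted p and of 10 in IR_iEV_30d against IR_30d. There were 2, 0, 2 and 0 of 11 at an unadjusted edgeR p under 0.05 in that order. Tnfaip3, which encodes the deubiquitinase A20 and is itself induced by NF-kB in many cells, had 3.44, 3.80 and 6.16 CPM in NT, 5.17, 4.53 and 3.66 CPM in IR_30d and 4.74, 3.97 and 4.35 CPM in IR_iEV_30d. Nfkbib, the gene of IkB-beta, ran from 11.5 to 13.7 CPM in NT and from 12.2 to 13.1 in IR_30d. Nfkbiz, an inducible nuclear member of the IkB family, had 5.67, 5.94 and 11.0 CPM in NT and 6.65, 9.44 and 8.52 CPM in IR_30d. The IR_30d libraries overlapped those of NT for all 3 genes.

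Of 19 genes known as canonical targets 12 passed the low-count filter, so the figures here are not those of the whole list. In IR_30d against NT 2 of 12 passed, where 4.48% of all genes did. Both were higher and both were also called by DESeq2. The median difference was 0.67 (log2) with 11 of 12 above 0. Lcn2, which encodes the iron-sequestering protein lipocalin 2, had 26.5, 23.8 and 23.3 CPM in NT and 96.5, 164 and 145 CPM in IR_30d. It had 23.9, 37.4 and 18.4 CPM in IR_iEV_30d, so its IR_30d libraries stood above those of both other groups, with differences of 2.46 ± 0.31 and -2.35 ± 0.31 (log2, SE). Vcam1, an endothelial adhesion molecule, had 3.09, 4.65 and 3.88 CPM in NT and 4.92, 7.34 and 7.94 CPM in IR_30d. It had 6.73, 7.78 and 4.64 CPM in IR_iEV_30d, and its call between IR_30d and NT (0.80 ± 0.22) was lost when any of NT replicate 1, NT replicate 3, IR_30d replicate 2 or IR_30d replicate 3 was left out. It was also lost in a fit of the 2 groups alone (0.80), with the planned limit on sublingual RNA (0.64) and with the 6 sublingual-high libraries left out (0.64). In IR_iEV_30d against IR_30d 1 of 12 passed (Lcn2, lower), where 0.798% of all genes did. The median difference there was -0.31 with 3 of 12 above 0. The Lcn2 call was lost without IR_30d replicate 3, IR_iEV_30d replicate 1 or IR_iEV_30d replicate 3, at -2.29, -2.28 and -2.14. Other well-known targets did not pass, among them Icam1 at 4.13, 5.75 and 6.91 CPM in NT and 5.50, 8.14 and 6.44 CPM in IR_30d, and Sod2 at 122 to 140 and 137 to 148 CPM. At day 4, 0 of 12 passed in edgeR in either comparison and 0 in DESeq2, with 4 of 12 and 1 of 12 at an unadjusted edgeR p under 0.05 (11.6% and 6.81% of all genes) and with medians of -0.27 in IR_4d against NT and -0.0052 in IR_iEV_4d against IR_4d. Of 5 chemokine and adhesion genes known as noncanonical targets 3 were tested and 0 passed in any main comparison in edgeR. DESeq2 also called 0, of 3 genes with an adjusted p and of 2 in IR_iEV_30d against IR_30d. There was 1 of 3 at an unadjusted edgeR p under 0.05, Cxcl13 in IR_iEV_30d against IR_30d, at no more than 0.589 CPM in any library. Cxcl12 was at 17.5 to 21.9 CPM in NT and 17.9 to 19.2 in IR_30d, and Ccl21a at 3.41 to 3.84 and 3.07 to 3.92. Cd40lg, Il6 and Madcam1 of these lists were not analysed here.

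**Figure D4:**
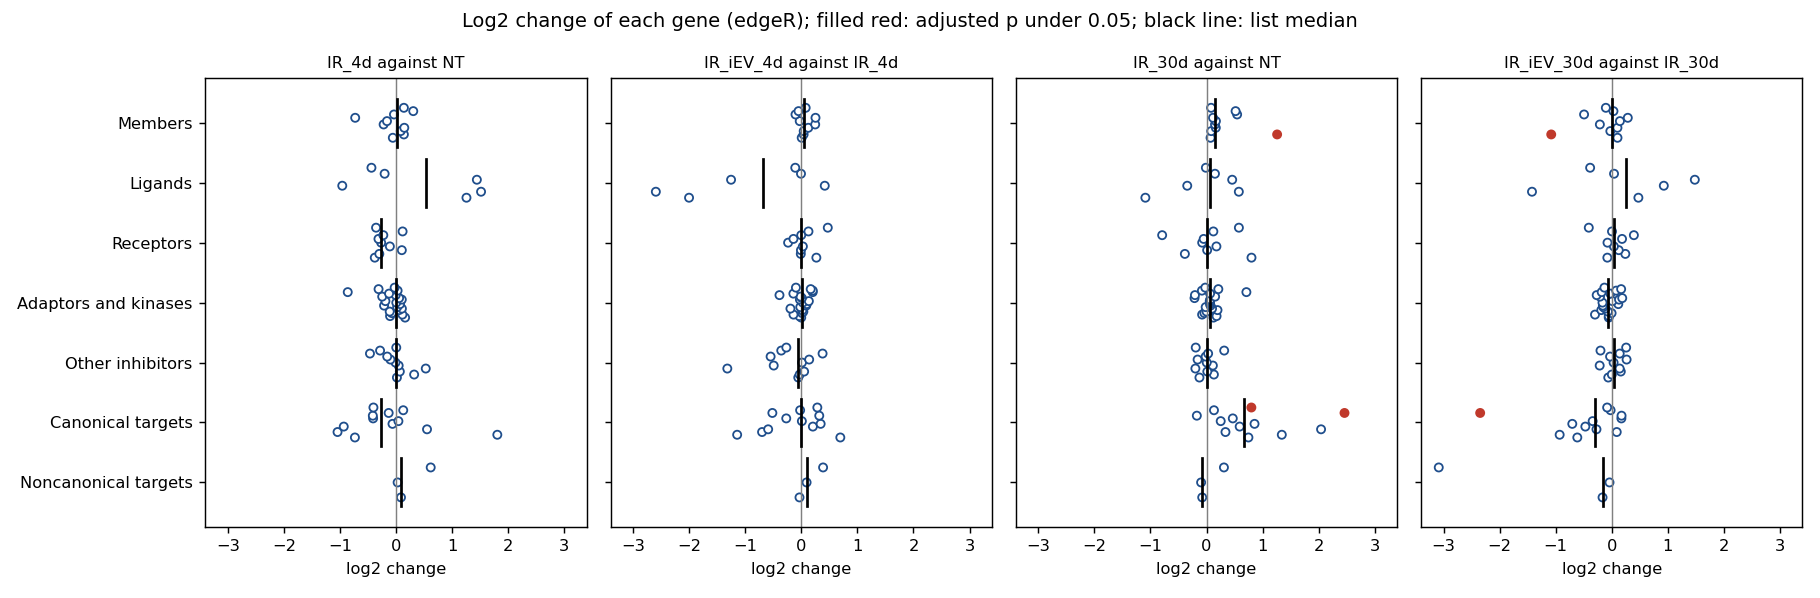
Log2 change of each tested gene of the members and the pathway lists in the 4 main comparisons, 1 point per gene, from edgeR; red points passed the threshold and black lines are medians. Lcn2 is the point at 2.46 in IR_30d against NT and at -2.35 in IR_iEV_30d against IR_30d, and the ligand points scatter widely at low counts.

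The genes whose profile was nearest that of Nfkb2 were found by the root mean square difference of log2 CPM over the 15 libraries. Each gene was centred on its own mean. The candidates were 9567 genes with a mean of at least 5 CPM. Members and predicted, clone-named or immunoglobulin genes had been left out, so no member could appear among the 9567. The median difference from Nfkb2 over those genes was 0.503, and the nearest were Igfals (0.186), Mcam (0.194), Peli2 (0.208), Sfxn3 (0.215) and Vegfa (0.223). Because the measure uses all 15 libraries, these genes follow Nfkb2 by choice and their levels carry no test. Igfals, an insulin-like growth factor carrier subunit, was at 22.1 CPM in NT, 44.1 in IR_30d and 21.7 in IR_iEV_30d on average. Vegfa, the vascular growth factor gene, was at 489 CPM in NT, 896 in IR_30d and 502 in IR_iEV_30d. Mcam, a cell adhesion molecule, was at 20.2, 41.2 and 24.4 CPM, and it was also higher in IR_4d, at 26.8, than in NT. For Relb the nearest were Chchd2, Pex6, Rsl24d1, Hspb1 and Pole3, at 0.0962 to 0.108 with a median over all candidates of 0.243. The genes named for Nfkb2 and for Relb had no gene in common. The measure favours this, since it is not scaled and the SD of log2 CPM was 0.488 for Nfkb2 and 0.177 for Relb.

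**Figure D5:**
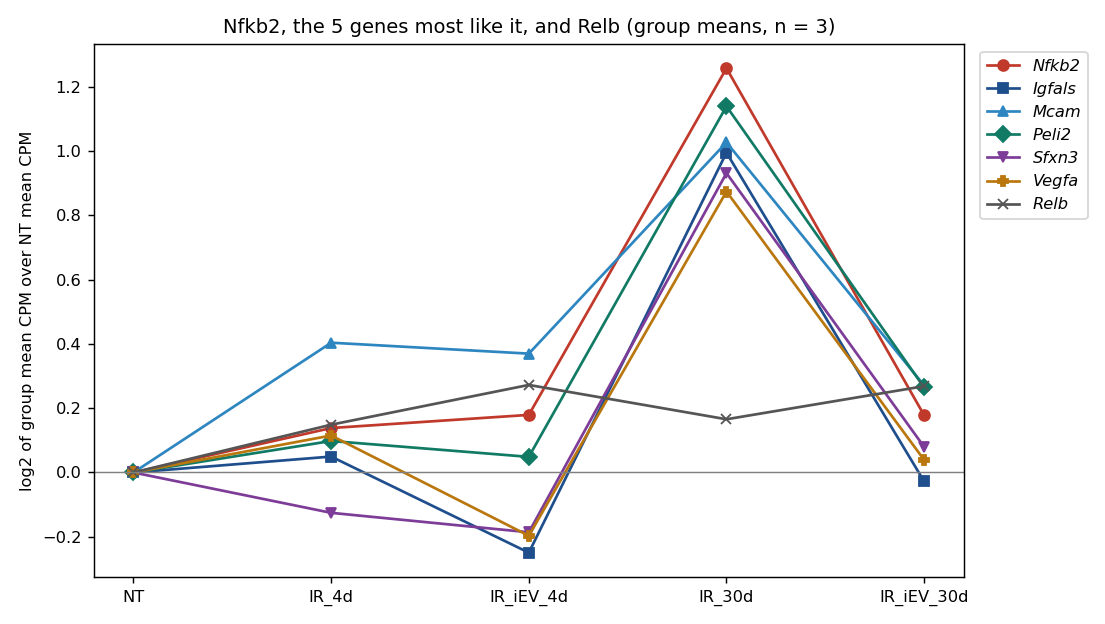
Log2 ratio of group mean CPM to the NT mean for Nfkb2, the 5 genes nearest it, and Relb, by group (n = 3); lines join the means to guide the eye. Nfkb2 and the 5 genes chosen for their likeness are highest in IR_30d, where Vegfa averages 896 CPM. Relb has no peak there, averaging 7.43 CPM in NT, 8.33 in IR_30d, 8.97 in IR_iEV_4d and 8.94 in IR_iEV_30d.

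Egf and Klk1b3, secretory products of the granular duct cells, differed between the groups in the direction of Nfkb2. Egf had 27302, 42009 and 39343 CPM in NT, 70768, 70836 and 71940 CPM in IR_30d and 36310, 49543 and 34282 CPM in IR_iEV_30d. Klk1b3, a kallikrein gene, averaged 2821 CPM in NT, 6826 in IR_30d and 3197 in IR_iEV_30d. Both passed in IR_30d against NT, and Klk1b3 but not Egf passed in IR_iEV_30d against IR_30d. Klk1, another kallikrein of the gland, went the other way, at 7309, 2473 and 4779 CPM, and Aqp5 averaged 282, 206 and 282 CPM. Over the acinar and duct marker list, the summed level was 43875 to 56538 CPM in NT, 87710 to 90186 CPM in IR_30d and 47006 to 62512 CPM in IR_iEV_30d. Egf makes up most of that sum. Over the list the median log2 difference between IR_30d and NT was -0.23, with 3 of 9 genes above 0, and Klk1 and Aqp5 passed as lower. Between IR_iEV_30d and IR_30d the list median was 0.18, with 6 of 9 genes above 0. The part of these cells in the Nfkb2 difference was not tested.

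Macrophage markers were also higher in IR_30d: 5 of 7 passed against NT, where 4.48% of all genes did, and their summed level was 139 to 149 CPM in NT, 196 to 252 in IR_30d and 138 to 184 in IR_iEV_30d. C1qa, a complement gene of macrophages, had 21.7, 27.2 and 25.4 CPM in NT, 39.4, 53.6 and 56.2 CPM in IR_30d and 36.2, 35.3 and 31.2 CPM in IR_iEV_30d, so the 3 IR_iEV_30d libraries lay above those of NT. In IR_iEV_30d against IR_30d 0 of 7 passed in edgeR, 7 of 7 were below 0 and 6 of 7 had an unadjusted p under 0.05, against 12.9% of all genes. Their part in the Nfkb2 difference was not tested. Markers of lymphocytes, in which the noncanonical arm is best known, were low: the summed level was 2.68 to 4.78 CPM over all libraries for B cells and lymph node and 2.24 to 9.59 CPM for T and NK cells. The defining B cell marker Cd79a did not exceed 0.409 CPM and the T cell marker Cd3d did not exceed 0.114 CPM. The B cell and lymph node sum covers the 5 of 7 listed genes that were among the counted symbols. Of 6 neutrophil markers 3 were among them, and these summed to at most 3.01 CPM. Csf3r, the one tested and the gene of a granulocyte cytokine receptor, had 0.315 to 0.777 CPM in NT, 1.48 to 2.90 in IR_30d and 1.21 to 1.99 in IR_iEV_30d. It passed between IR_30d and NT at 1.87 ± 0.43 (log2, SE), and its part in the differences of Nfkb2 and Lcn2 was not tested.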

How the data were processed

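RNA counts were analysed for 15 gland libraries in 5 groups of 3, grouped by their labels. The authors deposited whole-number read counts per gene symbol; per the submitters' processing notes TopHat, HTSeq, DESeq2 and build GRCm39 were used, with versions, annotation and strand setting not given in the sources used here. Per the labels' protocols, RNA was extracted with TRIzol and libraries were made with a directional kit. Total counts were 29082798 to 52201098, and no 2 libraries were identical.

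edgeR 4.0.16 under R 4.3.3 fitted 1 model to the 15 libraries (10 residual degrees of freedom), with TMM scaling, filterByExpr (minimum count 10, minimum total 15), robust quasi-likelihood F test, Benjamini-Hochberg over 16042 genes, threshold 0.05. SE is the absolute log2 change divided by the square root of F. The pipeline was tested on simulated data. Precision is limited by 3 libraries per group as well as by depth.

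The members and lists were chosen with earlier results of these data known. Named genes were all members, up to 5 genes per pathway list with the lowest p, and the 5 genes nearest Nfkb2 and Relb, from which those printed were picked; Ltb, Tnfsf12, the IKK genes and others were added for their role after values were seen. Marker lists covered neighbouring glands, fat, muscle, leukocytes, endothelium and the gland itself. Alternatives were DESeq2 1.42.0, other scalings and filters, a fit of 2 groups, a replicate block and left-out libraries.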

Additional observations from a re-analysis of the deposited data

Results flagged for a closer look

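The iEV difference of Nfkb2 was not the same on both days. The number of weekly injections differs with the day and the time since the last can differ, and neither can be told apart from the day. IR_iEV_30d differed from IR_30d by -1.08 and IR_iEV_4d from IR_4d by 0.042 on the log2 scale, so the day 30 difference minus the day 4 difference was -1.12 ± 0.14 (SE). Of all 16042 genes, 20 (0.125%) passed the same contrast in edgeR, and among the 10 members Nfkb2 alone did. Nfkb2 at day 30 led to the choice of the family, so the value is a description with no p-value. Without the 6 libraries high in sublingual markers it was -0.95 and no longer past the threshold, with 1 library left in each day 4 group.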

How the results depend on the processing

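The number of members past the threshold stayed at 0, 1, 0 and 1 in IR_4d against NT, IR_30d against NT, IR_iEV_4d against IR_4d and IR_iEV_30d against IR_30d, under every alternative run for each. The 1 at day 30 was Nfkb2, the gene the family was built around, so these counts are a description there. Nfkb2 ranged from 1.16 to 1.41 in IR_30d against NT and from -1.13 to -1.03 in IR_iEV_30d against IR_30d. A mean of at least 5 CPM removed Nfkbie, Map3k14 and Bcl3 from the test. The sublingual limit set first (mean log2 CPM of 2) left no day 4 library, so a limit of 5 was added after seeing the data.

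Under settings other than leaving out 1 library, 317 member values kept their sign and call and 11 changed sign, for which the cause was not tested. With upper quartile scaling Rela was 0.0024 in IR_iEV_30d against IR_30d. With the planned sublingual limit, Nfkbia was -0.087 and Nfkbie -0.12 in IR_30d against NT. Without the 6 libraries, these were -0.085 and -0.12, and Rel was 0.16 in IR_4d against NT. In IR_iEV_4d against IR_4d, Nfkb1 was then -0.16, Nfkb2 -0.10, Rela -0.11, Nfkbie -0.99 and Bcl3 0.065.

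Leaving out 1 library at a time changed the sign of small differences. The ranges in IR_4d against NT were -0.10 to 0.016 for Nfkb1, -0.49 to 0.16 for Rel, -0.39 to 0.013 for Nfkbia and -0.18 to 0.12 for Bcl3. In IR_30d against NT they were -0.021 to 0.16 for Rela, -0.075 to 0.53 for Rel, -0.062 to 0.35 for Nfkbia and -0.10 to 0.42 for Nfkbie. In IR_iEV_4d against IR_4d they were -0.070 to 0.053 for Nfkb1, -0.0017 to 0.10 for Nfkb2, -0.10 to 0.038 for Nfkbia, -0.24 to 0.047 for Bcl3 and -0.19 to 0.20 for Map3k14. In IR_iEV_30d against IR_30d they were -0.084 to 0.080 for Rela, -0.00068 to 0.19 for Relb, -0.00071 to 0.25 for Nfkbia and -0.057 to 0.077 for Map3k14.

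The replicate block left the member counts at 0, 1, 0 and 1. Replicate numbers gave no sign of pairing: correlations ran from -0.292 to 0.188 and exceeded 0.1 in 5 of 30 pairs with the same number, and 3 of 15 libraries correlated best with their own number. Over all genes, the count moved by more than 1.5 times under some settings. In IR_4d against NT it was 224, with 448 in DESeq2, 129 without the 6 libraries and 119 to 386 leaving out 1. In IR_30d against NT it was 718, with 1092 in DESeq2 and 355 to 606 leaving out 1. In IR_iEV_4d against IR_4d it was 5, with 30 in DESeq2, 2 at a mean of at least 5 CPM, 3 with the block or 2 groups alone and 0 to 7 leaving out 1. In IR_iEV_30d against IR_30d it was 128, with 411 in DESeq2, 83 with the block, 70 with 2 groups alone, 317 without the 6 libraries, 315 at the planned limit and 9 to 192 leaving out 1. Depth limits Nfkbie and Map3k14 most.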
